A study of Mus musculus with 4 samples.

Results

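The 10 genes described here are the osteoclast genes Acp5, Ctsk, Mmp9, Dcstamp and Ocstamp, the receptors Tnfrsf11a (RANK) and Csf1r, the ligands Tnfsf11 (RANKL) and Csf1, and the decoy receptor Tnfrsf11b (osteoprotegerin, OPG). They were chosen by gene symbol, and each had 1 row of its own among the 24216 rows of the authors' deposited table. All 10 were among the 18770 rows that the authors tested. The study compared molar pulp with incisor pulp of mice of the strain XLacZ4, with 2 RNA-seq libraries per tissue. XLacZ4 is a reporter line in which pericytes and vascular smooth muscle cells make beta-galactosidase, and both tissues came from this line. Pulp was dissociated and sorted for fluorescence after loading with FDG, which fluoresces once beta-galactosidase has cleaved it, so that any cell able to cleave FDG could enter. The labels give no treatment, age or animal number, and do not say whether a tissue's libraries are from different mice.

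The table holds 1 FPKM value per tissue (fragments per kilobase of transcript, scaled for library size), in which the authors had combined the libraries. No replicate error can be given for these values, and sequencing depth is unknown. A gene is named as called where the authors' q value, their p value corrected for multiple testing, lay under 0.05. All folds, p values and q values below are the authors', from the authors' deposited table. In bulk RNA, fewer cells of a type and less RNA per cell cannot be told apart, and a difference between the teeth cannot be told apart from one in sorting or library preparation.

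Osteoclasts are multinucleate cells that dissolve bone and tooth root, and they form by fusion of cells of the monocyte and macrophage lineage. CSF1 keeps the precursors alive through its receptor CSF1R, and RANKL, made by stromal cells, odontogenic and bone-forming cells, drives their differentiation through RANK, while OPG binds RANKL and keeps it from its receptor. In the jaw, osteoclasts open the path along which a tooth erupts, and the balance of RANKL and OPG in the tissues around the tooth sets where they form.

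Of the 10 genes, 2 (20%) were called, both with the higher value in molar. Of all tested rows 16.2% were called in either direction, 11.9% toward molar and 4.28% toward incisor, so the share was close to that of all rows. The 2 called genes were Ocstamp and Acp5. Both are among the 5 resorption and fusion genes, of which Ctsk, Mmp9 and Dcstamp were not called. The same 2 genes were called by the authors' own mark of significance (17.3% of tested rows) and by Benjamini-Hochberg adjustment over rows with at least 1 FPKM (24.1% of them). With q under 0.01, which 11.1% of tested rows reached, only Ocstamp was called. In incisor the order of levels in FPKM was Ctsk, Acp5, Csf1r, Mmp9, Tnfrsf11b, Csf1, Tnfrsf11a, Dcstamp, Tnfsf11 and Ocstamp. In molar it was Acp5, Ctsk, Csf1r, Csf1, Ocstamp, Mmp9, Dcstamp, Tnfrsf11a, Tnfrsf11b and Tnfsf11. With 1 value per tissue, no pair of neighbours in either order could be tested. Acp5, Ctsk and Csf1r together held 94.4% of the summed FPKM of the 10 genes in incisor and 96.3% in molar. The median of log2((molar FPKM + 1)/(incisor FPKM + 1)) over the 10 genes was 0.26, beside 0.21 over the 18617 tested single-gene rows and 0.14 over the 13082 rows with at least 1 FPKM in either tissue.

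**Figure D1:**
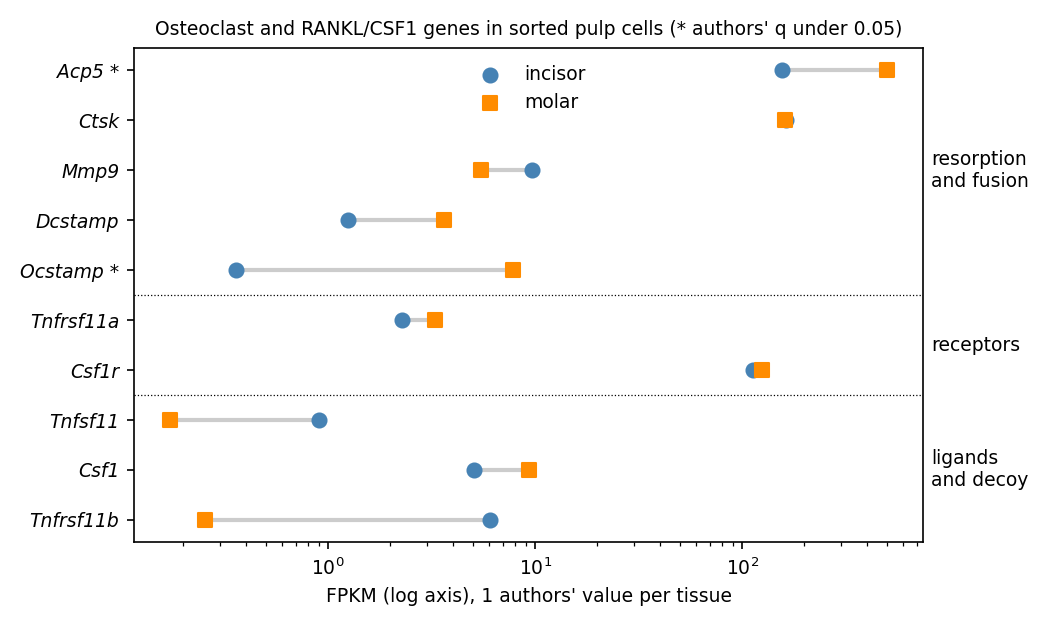
FPKM of the 10 genes on a log axis, with a circle for incisor, a square for molar and a grey line joining them; each symbol is the authors' single value for a tissue, without error, and an asterisk marks an authors' q under 0.05. Ocstamp and Acp5 lie further right in molar, Tnfrsf11b and Tnfsf11 lie further right in incisor without being called, and the Ctsk symbols coincide.

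The ligand RANKL was scarce in both tissues. Tnfsf11 (chromosome 14, 78277446 to 78308043, mm10) stood at 0.908 FPKM in incisor and 0.172 in molar, a log2 fold of -2.40 that was not called in the authors' deposited table (p = 0.247, q = 0.381). Its level ranked at percentile 51.7 of all single-gene rows in incisor and 28.5 in molar. Tnfrsf11b (chromosome 15, 54250619 to 54278484), which encodes the decoy OPG, stood at 6.08 FPKM in incisor and 0.254 in molar. This 24.0-fold difference was not called in the authors' deposited table (p = 0.185, q = 0.324). It was the widest of the 10 genes as a plain ratio of FPKM, but with 1 FPKM added to each value Tnfrsf11b had a log2 fold of -2.50 and Ocstamp the wider one, at 2.70. OPG RNA thus ranked at percentile 75.4 in incisor and 33.5 in molar. Both genes of the RANKL and OPG pair were lower in molar in these values, and neither difference passed the authors' test.

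Within each tissue, FPKM allows the transcripts of RANKL and OPG to be set side by side per length. OPG RNA exceeded RANKL RNA in both, by 6.70 times in incisor and 1.47 times in molar. The ratio of Tnfsf11 to Tnfrsf11b was thus 0.149 in incisor and 0.678 in molar, with no error and no test. Both molar values lay in the range of genes with little RNA in the table: among 1463 olfactory, vomeronasal and taste receptor genes, a group chosen after values were seen, the 99th percentile was 3.81 FPKM in molar and 0.138 in incisor. Dcstamp and Tnfrsf11a lay under that molar level too, while all 10 genes lay above the incisor level.

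Csf1, the growth factor of the monocyte lineage (chromosome 3, 107741048 to 107760469), stood at 5.06 FPKM in incisor and 9.39 in molar. That 1.85-fold difference was not called in the authors' deposited table (p = 0.0527, q = 0.191). Csf1 ranked at percentile 72.8 in incisor and 80.0 in molar. Il34, the other ligand of CSF1R, singled out after its values were seen, was lower than Csf1 in both, at 1.64 and 2.37 FPKM with q = 0.503 in the authors' deposited table, so Csf1 was 3.09 and 3.96 times as high as Il34. Csf1 was the more abundant of the ligands of CSF1R in either tooth, and it exceeded Tnfsf11 in both.

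Neither receptor was called between the teeth. Csf1r, the receptor that marks cells of the monocyte and macrophage lineage (chromosome 18, 61105572 to 61131139), stood at 113 FPKM in incisor and 124 in molar, at percentiles 97.1 and 95.6 of all single-gene rows. Its log2 fold of 0.14 was not called in the authors' deposited table (q = 0.655). Tnfrsf11a, which encodes RANK (chromosome 1, 105780723 to 105847981), stood at 2.27 FPKM in incisor and 3.29 in molar, a log2 fold of 0.53 (q = 0.336 in the authors' deposited table). The receptor of CSF1 was therefore 49.7 times as high as RANK in incisor and 37.8 times in molar. Both log2 folds turn negative once the FPKM totals of the tissues are set equal, to -0.46 for Csf1r and -0.062 for Tnfrsf11a, so that no direction can be given for either. Receptor RNA exceeded ligand RNA for CSF1, with 22.3 times as much Csf1r as Csf1 in incisor and 13.2 times in molar. For RANKL the receptor was 2.50 times its ligand in incisor and 19.1 times in molar.

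The fusion genes were both low in incisor, and Ocstamp alone was called higher in molar. Ocstamp encodes a membrane protein needed for osteoclast precursors to fuse (chromosome 2, 165395450 to 165400394). It stood at 0.359 FPKM in incisor, the lowest value of the 10 genes there, and at 7.84 in molar, a log2 fold of 4.45 or 21.9-fold (p = 5e-05, q = 0.000664 in the authors' deposited table). That p is the smallest in the table and is shared by 1414 called rows. Ocstamp ranked at percentile 44.4 of all single-gene rows in incisor and 78.0 in molar. Dcstamp, its relative with the same role in fusion (chromosome 15, 39745930 to 39760938), stood at 1.25 FPKM in incisor and 3.63 in molar. This 2.89-fold difference had the same direction and was not called in the authors' deposited table (p = 0.106, q = 0.252). In incisor Dcstamp was 3.50 times as high as Ocstamp, and in molar Ocstamp was 2.16 times as high as Dcstamp. The coding transcripts of the pair share no stretch of 32 bases in GENCODE M21, and 5.24% of such stretches in the Ocstamp transcript occur in transcripts of other genes. For the olfactory, vomeronasal and taste receptor genes the 99th percentile was 3.81 FPKM in molar, and Ocstamp lay above it and Dcstamp under it. In incisor that level was 0.138 FPKM, so the low values of the table reached higher in molar. The part of this in the Ocstamp fold was not tested.

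Acp5, the tartrate-resistant acid phosphatase used to stain osteoclasts and also made by tissue macrophages (chromosome 9; GENCODE M21 places the gene at 22126727 to 22135711), was the other called gene. It stood at 155 FPKM in incisor and 503 in molar, a log2 fold of 1.70 or 3.24-fold (p = 0.0045, q = 0.0316 in the authors' deposited table). In molar it was the most abundant of the 10 genes, at percentile 98.8 of all single-gene rows, and in incisor it ranked at 97.9. Its row in the table covers 22055411 to 22389206, an interval that 15 rows share, and none of the other 14 rows was called (smallest q = 0.129, for Cnn1). In GENCODE M21 the noncoding gene 6530413G14Rik spans Acp5 on the opposite strand. Whether reads were counted by strand is not given in the sources used here, so the Acp5 value may hold reads of both and is uncertain to that extent.

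Ctsk encodes cathepsin K, the protease with which osteoclasts cut collagen, and is also found in some fibroblasts (chromosome 3, 95499210 to 95509387). It was level between the teeth in these values, at 162 FPKM in incisor and 161 in molar, with a log2 fold of -0.01 (p = 0.960, q = 0.967 in the authors' deposited table). Acp5 and Ctsk had nearly the same level in incisor, with a ratio of Acp5 to Ctsk of 0.957, and in molar that ratio was 3.13. With equal FPKM totals the log2 fold of Ctsk was -0.61 and that of Acp5 1.10. Whether the folds of Acp5 and Ctsk differ from each other could not be tested with 1 value per tissue. Mmp9, gelatinase B, a matrix protease of osteoclasts, macrophages and neutrophils (chromosome 2, 164948219 to 164955850), went the other way. Its value was 9.68 FPKM in incisor and 5.47 in molar, a log2 fold of -0.82 that was not called in the authors' deposited table (p = 0.123, q = 0.252).

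The sequence before the transcription start is shown for Acp5 and Ctsk, since these resorption genes had like levels in incisor and only Acp5 was called. RefSeq (GRCm38.p6) gives 3 start sites for Acp5, and the one printed lies furthest downstream, at 22130598, inside the gene. Each line is 250 bases 5′ to 3′ that end just before the start. The windows are chr9:22130599-22130848 on the minus strand for Acp5 and chr3:95498960-95499209 on the plus strand for Ctsk. Capitals mark matches on either strand to 4 motifs of factors that act in the osteoclast lineage, namely TGANTCA (AP-1), CATGTG (an E-box that MITF can bind), TGGAAA (NFAT) and GAGGAA (PU.1).
Acp5: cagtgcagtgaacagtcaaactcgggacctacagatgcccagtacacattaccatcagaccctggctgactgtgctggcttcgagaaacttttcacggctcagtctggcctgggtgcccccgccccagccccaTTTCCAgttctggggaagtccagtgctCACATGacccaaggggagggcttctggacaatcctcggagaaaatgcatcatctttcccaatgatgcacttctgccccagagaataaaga
Ctsk: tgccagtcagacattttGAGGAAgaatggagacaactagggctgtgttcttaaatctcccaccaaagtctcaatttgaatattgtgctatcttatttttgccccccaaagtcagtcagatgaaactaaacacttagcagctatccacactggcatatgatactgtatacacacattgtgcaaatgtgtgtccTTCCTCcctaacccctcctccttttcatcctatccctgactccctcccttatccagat
In the Acp5 window, TTTCCA, the reverse complement of the NFAT motif, begins 117 bases before the start, and CACATG, that of the E-box, begins 90 bases before it. In the Ctsk window, GAGGAA begins 233 bases before the start and TTCCTC, its reverse complement, 58 bases before it. The matches do not overlap one another. Among 32851 windows of the same length in the RefSeq table, 6.75% hold the AP-1 motif, 12.3% the E-box, 18.6% the NFAT motif and 23.3% the PU.1 motif. These shares are per window, whereas Acp5 had 3 windows, of which the printed one alone held a match. Windows were used for Acp5, Ctsk, Tnfrsf11a, Tnfsf11 and Csf1, and the other 2 windows of Acp5 and those of Tnfrsf11a, Tnfsf11 and Csf1 held none of the 4 motifs. A match is a stretch of letters and not a shown binding site.

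**Figure D2:**
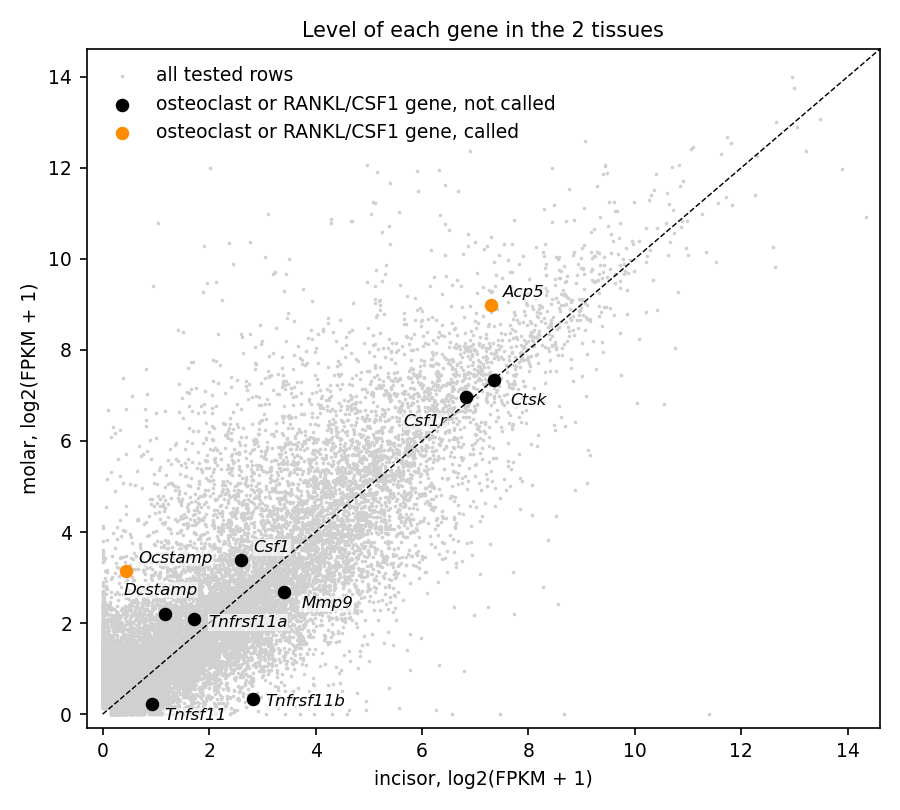
Molar against incisor level of each row tested by the authors, as log2(FPKM + 1), with the 10 genes marked in black (not called) or orange (called) and the line of equal levels dashed. Ctsk and Csf1r lie on or close to the line, Ocstamp and Acp5 above it, and Tnfrsf11b furthest below it among the 10 genes.

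Each level was also set against that of Csf1r, the gene of the monocyte and macrophage lineage, within the same tissue. The ratio of Acp5 to Csf1r was 1.38 in incisor and 4.06 in molar, and that of Ctsk to Csf1r was 1.44 and 1.30. Ocstamp was 0.00318 times Csf1r in incisor and 0.0632 times in molar, and Dcstamp 0.0111 and 0.0292 times. For Mmp9 the ratio was 0.0857 in incisor and 0.0440 in molar. So the molar to incisor ratio of Acp5 was 2.95 after division by Csf1r, that of Ocstamp 19.9 and that of Dcstamp 2.63, and these ratios carry no error or test. They depend on the gene divided by, which was tried with 20 macrophage markers after values were seen. Divided by 1 marker at a time, the ratio of Acp5 ran from 0.354 (by Marco) to 34.0 (by Mpeg1) with a median of 2.51, and that of Ocstamp from 2.39 to 229 with a median of 17.0. For Dcstamp it ran from 0.316 to 30.3 with a median of 2.24.

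A wide fold did not by itself bring a call in this table. Of the 90 tested rows, Tnfrsf11b included, whose higher value lay within 2-fold of that of Tnfrsf11b and whose fold was at least as wide, 13 were called, or 14.4%. For Tnfsf11 the corresponding count was 103 of 725, or 14.2%. Around Acp5, whose values are far higher in both tissues, 159 of 165 such rows were called. By the test statistic instead, Tnfrsf11b at -2.85 lay beyond Acp5 at 2.42, and 2027 of the 2181 rows with a statistic at least as large were called. The uncalled RANKL and OPG folds are therefore values that the authors' test did not separate from no difference, and not evidence that the tissues were alike.

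**Figure D3:**
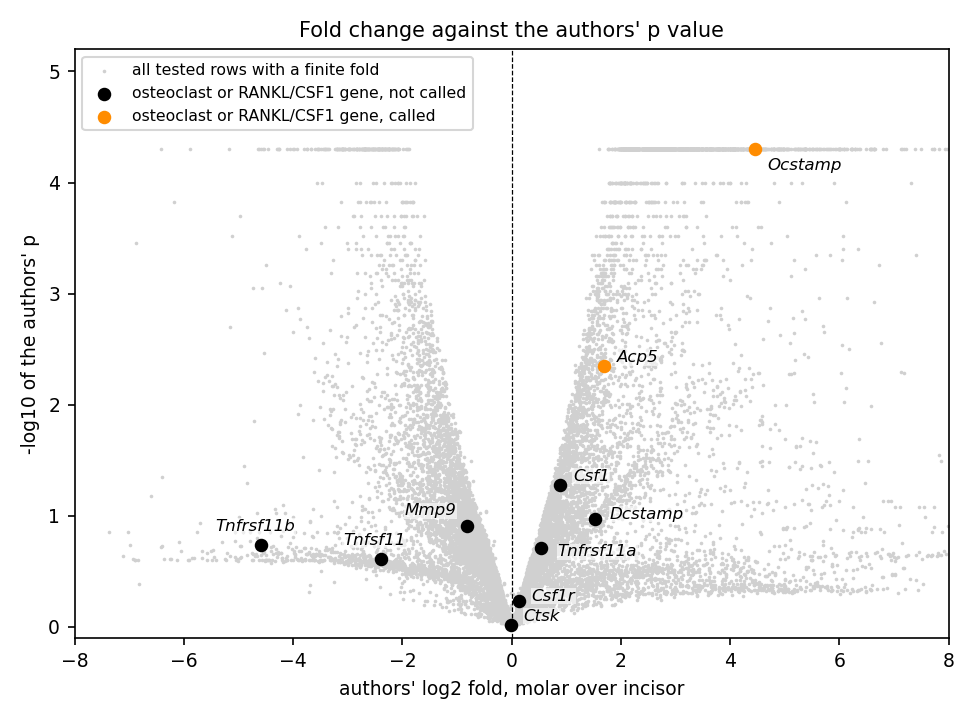
The authors' log2 fold of molar over incisor on the x axis against −log10 of the authors' p on the y axis for all tested rows with a finite fold, with the 10 genes labelled. Ocstamp sits on the ceiling set by the smallest p of 5e-05 and Acp5 on the right flank, while Tnfrsf11b and Tnfsf11 sit in the low band of rows with wide folds and p values of 0.185 and 0.247.

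Other genes of the osteoclast spanned a wide range of levels in both tissues. Those of this paragraph were singled out after their values were seen. Calcr, the calcitonin receptor, was listed at 0 in incisor and at 0.135 FPKM in molar. Oscar, an immunoglobulin-like receptor that costimulates differentiation, stood at 0.263 and 0.323, and Itgb3, the integrin subunit of the sealing zone, at 0.347 and 0.243. Atp6v0d2, a proton pump subunit needed for fusion, stood at 1.61 in incisor and 0.681 in molar. A higher level was listed for Tcirg1, the osteoclast's own proton pump subunit, at 6.89 and 8.81 FPKM. Clcn7, the chloride and proton exchanger of the acid compartment, stood at 6.15 in incisor and 1.61 in molar. Mmp14, a membrane-bound matrix protease, stood at 54.8 and 44.3. None of these 7 was called in the authors' deposited table, where 16.2% of all tested rows were. Because the 7 were picked with values known, that count has no weight beside this share. The called genes of the lists from which they were taken, Ctsl and Itgav among them, are given below. In molar, Calcr, Oscar, Itgb3, Atp6v0d2 and Clcn7 lay under 3.81 FPKM, the 99th percentile of the olfactory, vomeronasal and taste receptor genes. In incisor only Calcr lay under that percentile, which was 0.138 FPKM there.

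Among genes that carry the signal inside osteoclast precursors, Fos, Spi1, Nfkb2, Fcer1g and Tyrobp were called, each with the higher value in molar. Of 20 genes, 19 were tested, and the 5 called were 26.3% of these, beside 16.2% of all tested rows (11.9% toward molar and 4.28% toward incisor). The other 14 were not called, and the median was 0.41 on the log2(FPKM + 1) scale. Fos, part of the AP-1 factor downstream of RANK, stood at 194 FPKM in incisor and 1008 in molar (q = 0.000664 in the authors' deposited table). Spi1, which encodes the myeloid factor PU.1, stood at 2.59 and 18.6 (q = 0.000664), and Nfkb2, the precursor of the noncanonical NF-kB subunit, at 1.14 and 5.37 (q = 0.0132) in the authors' deposited table. The adaptors through which immune receptors costimulate RANK were called as well, with Fcer1g at 166 and 800 (q = 0.000664) and Tyrobp at 512 and 1208 (q = 0.0367) in the authors' deposited table. Trem2, a receptor that signals through Tyrobp, had 62.6 FPKM in incisor against 27.3 in molar and was not called (q = 0.124). The uncalled Nfkb1 stood at 17.6 and 14.7 FPKM and Tfec, a relative of MITF, at 8.20 and 11.2. Nfatc1, the master factor of the osteoclast, was named outside the rule and after its values were seen, and it stood at 1.76 in incisor and 3.45 in molar (q = 0.252 in the authors' deposited table). Fos is also an immediate-early gene, and of 10 other immediate-early genes chosen after values were seen, 9 were called higher in molar, with summed FPKM of 459 in incisor and 5420 in molar. Their part in the Fos value was not tested.

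Among genes of acid secretion, attachment and matrix breakdown, Ctsl was called toward molar and Itgav toward incisor. These were 12.5% of the 16 tested genes, close to the 16.2% of all tested rows, and the other 14 were not called. The median was -0.21. Ctsl, a lysosomal cysteine protease related to cathepsin K, stood at 72.8 FPKM in incisor and 235 in molar (q = 0.0103 in the authors' deposited table). Itgav, the integrin subunit that pairs with Itgb3, stood at 3.34 in incisor and 0.850 in molar (q = 0.0428 in the authors' deposited table). The most abundant uncalled genes were Ctsb, another lysosomal cathepsin, at 1572 and 1083, Atp6ap1, an accessory subunit of the proton pump, at 232 and 245, and Car2, the carbonic anhydrase that supplies protons, at 218 and 177. The proton pump genes of this list, Tcirg1, Atp6v0d2 and Atp6ap1, were not called. Other subunits of the pump were not in the list.

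Among 12 genes listed as inhibitors of osteoclast formation, 4 were called toward molar, 1 toward incisor and 7 were not called, with a median of 0.23. The share called was 41.7%, beside 16.2% of all tested rows (11.9% toward molar and 4.28% toward incisor). Nfkbia, the inhibitor that holds NF-kB in the cytoplasm, stood at 32.8 FPKM in incisor and 2418 in molar (q = 0.000664 in the authors' deposited table). Irf8, a macrophage factor that holds back Nfatc1, stood at 5.52 and 31.9 (q = 0.000664), and the cytokine genes Il10 at 7.43 and 31.5 (q = 0.00124) and Ifnb1 at 12.1 and 48.9 (q = 0.00375) in the authors' deposited table. Lgr4, a receptor that binds RANKL and opposes RANK, went toward incisor, at 12.7 FPKM against 2.89 in molar (q = 0.00326 in the authors' deposited table). The uncalled genes of highest level were Id2 (522 and 869), Tnfaip3 (21.6 and 25.5) and Sh3bp2 (7.69 and 6.41). Sh3bp2 is an adaptor known to promote osteoclast formation and does not do what the name of the list says.

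Among genes that regulate RANKL, OPG and CSF1 output in stromal cells, the inflammatory cytokine genes Tnf, Il1b and Il6 were called toward molar. Of 18 genes, 17 were tested, 4 were called toward molar, 1 toward incisor and 12 were not called, with a median of 0.54. The share called was 29.4%, beside 16.2% of all tested rows, with 11.9% toward molar and 4.28% toward incisor. Tnf stood at 22.6 FPKM in incisor and 229 in molar, Il1b at 54.3 and 305, and Il6 at 1.20 and 23.7, each with q = 0.000664 in the authors' deposited table. Pth1r, the receptor of parathyroid hormone and of its related peptide, stood at 1.06 and 5.88 (q = 0.0241 in the authors' deposited table). Its ligand gene Pthlh, which induces RANKL in the tissue around an erupting tooth, went the other way, at 51.7 FPKM in incisor and 13.8 in molar (q = 0.0103 in the authors' deposited table). The uncalled Vdr, the vitamin D receptor, stood at 12.5 and 19.1, Wnt5a at 8.22 and 9.43, and Twist1 at 4.33 and 10.4. Tnfsf11 itself was not called beside them.

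**Figure D4:**
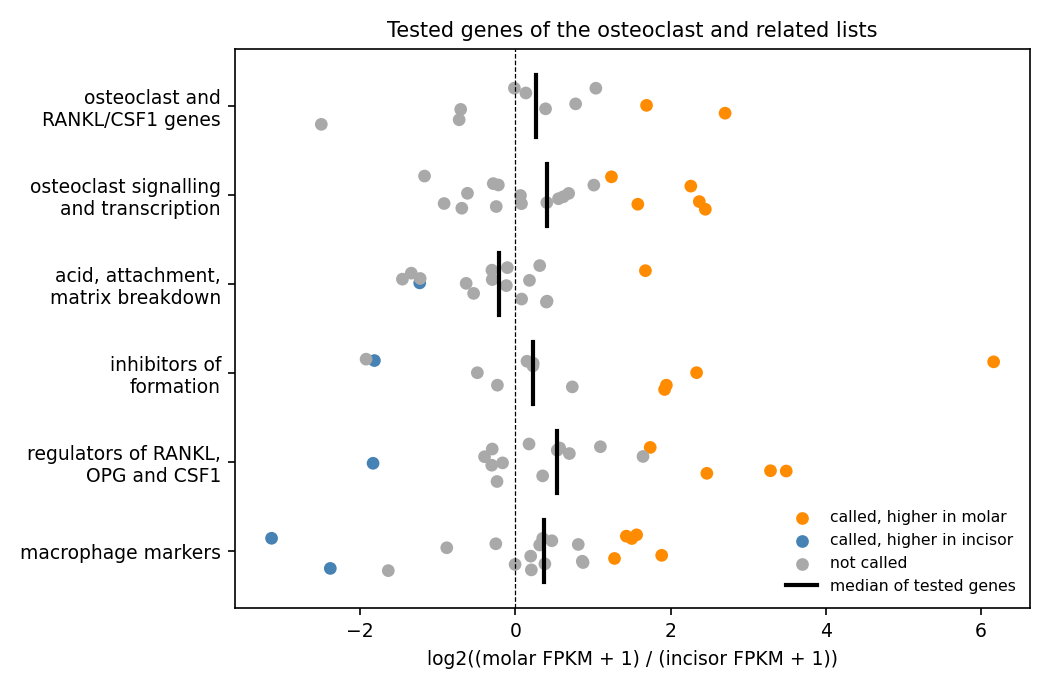
Difference between tissues of the tested genes in each list as log2((molar FPKM + 1)/(incisor FPKM + 1)), with orange and blue points for genes called toward molar and toward incisor, grey points for uncalled genes and a black bar for the median. The 10 genes have a median of 0.26 and the acid, attachment and matrix list has -0.21.

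Macrophage markers were called in both directions beside the osteoclast genes. Of 20, 5 were called toward molar and 2 toward incisor in the authors' deposited table, a share of 35%. Of all tested rows 16.2% were called (11.9% toward molar and 4.28% toward incisor). Some of the 20 are not particular to macrophages, namely Csf3r, the receptor of the granulocyte growth factor, and the general leukocyte genes Ptprc and Laptm5, all uncalled. None of the 20 was listed at 0, and their summed FPKM was 7372 in incisor and 11081 in molar. The FPKM total over all rows was also higher in molar, by a log2 ratio of 0.60. The complement genes C1qa (2.96-fold) and C1qc (2.70-fold), Aif1 (2.84-fold) and the scavenger receptors Cd163 (2.66-fold) and Marco (9.15-fold) were those higher in molar, beside the 3.24-fold of Acp5. Mpeg1 (10.5-fold) and the chemokine receptor gene Cx3cr1 (5.34-fold) were those higher in incisor. The part of macrophage RNA in the Acp5 and Ocstamp differences was not tested. Of 10 mural cell markers, 1 was called toward molar (Kcnj8) and 3 toward incisor (Rgs5, Pdgfrb and Tagln), with summed FPKM of 835 and 325. Of 8 endothelial markers, 7 were called higher in molar (Pecam1, Cdh5, Emcn, Kdr, Egfl7, Cldn5 and Tie1), with sums of 10.5 in incisor and 239 in molar, and Cldn5 was listed at 0 in incisor. Odontoblast and osteoblast markers, from cells known to make RANKL and OPG, were called higher in incisor in 2 of 10 cases (Dspp and Ibsp) and higher in molar in 1 (Alpl), with sums of 561 and 360. Dental epithelial markers were called higher in incisor in 7 of 10 cases (Amelx, Ambn, Enam, Krt14, Krt5, Cdh1 and Sfn) and never higher in molar, with sums of 23241 and 2618. Amelx alone stood at 20642 FPKM in incisor and 1937 in molar, and 4 of the 10 odontoblast and osteoblast markers were higher in molar. The shares called were 40% for mural, 87.5% for endothelial, 30% for odontoblast and osteoblast and 70% for dental epithelial markers. The Tnfrsf11b and Tnfsf11 values lay in the same direction as the mural, the odontoblast and osteoblast and the dental epithelial sums. The part of any of these cells in them was not tested.

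The rows most like the 2 called genes in level were found by distance in log2(FPKM + 1) over the 2 tissues, which is a likeness over 2 values only. Nearest to Acp5 were Atp5f1 (153 in incisor and 506 in molar), Aif1 (169 and 479) and Cfp (155 and 452), at distances of 0.02, 0.14 and 0.15. All of these were called in the authors' deposited table. Nearest to Ocstamp were Egfl8 (0.397 and 7.28), Smarcd3 (0.484 and 8.15) and 1700031A10Rik (0.242 and 8.18), at 0.10, 0.14 and 0.14. Of these, only Smarcd3 was called, with q = 0.000664, while Egfl8 had q = 0.345 and 1700031A10Rik q = 0.148 in the authors' deposited table.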

How the data were processed

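RNA-seq of FDG-sorted cells from molar and incisor pulp was deposited by the authors as 1 table. Per the file headers it gives per tissue an FPKM value and, per gene, the log2 fold, the signed score of the test, the p-value and the q-value. Per the submitters' processing notes, Trim Galore, HISAT2, edgeR and mm10 were used. The tool that made the table, its scaling, its annotation and its strand setting are unstated in the labels and headers. Columns were tied to tissues by the description labels. The authors' log2 fold equals log2 of molar over incisor FPKM in all but 1 of the rows above 0 in both tissues (tolerance 0.01), and that row was not among those tested. FPKM keeps no depth, so no interval is given.

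With 1 value per tissue no model was fitted, and the authors' q under 0.05 was used. The Benjamini-Hochberg step of an alternative was tested on simulated data. The smallest p was 5e-05 and the authors' own mark of significance reached q = 0.0600. Repeated symbols kept the row with the highest mean FPKM (23712 single-gene symbols), and 231 joined rows stayed out of ranks. Row starts were made 1-based. Shared 32-base stretches were counted over the longest coding transcript of GENCODE M21.

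The genes and lists were chosen with earlier results of these data known. All 10 genes are named. In the 4 lists of signalling, acid and matrix, inhibitor and stromal genes every called gene is named with its values, with the 3 uncalled genes of highest mean FPKM. In the 5 lists of cell type markers only the called genes are named, beside counts and sums. For each called gene the 3 nearest rows are given. Alternatives were another call rule, pseudocounts and scalings between tissues. Python 3.11.15 with pandas 2.3.3, numpy 2.4.6 and matplotlib 3.10.9 was used.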

Additional observations from a re-analysis of the deposited data

How the results depend on the processing

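The counts of called genes kept to within 1.5 times of those given under the authors' own mark of significance and under Benjamini-Hochberg adjustment over rows with at least 1 FPKM. With q under 0.01, the 10 genes had 1 called higher in molar, Ocstamp, and Acp5 was lost. Under that rule 3 signalling genes, 2 macrophage markers and 0 genes of acid secretion, attachment and matrix breakdown were higher in molar. Higher in incisor were then 1 mural marker, 0 acid, attachment and matrix genes and 0 regulators of RANKL, OPG and CSF1. Setting the median log2 fold to 0 shifted all folds by 0.22, and equal FPKM totals shifted them by 0.60. Acp5 then stood at 1.47 and 1.10, and Ocstamp at 4.23 and 3.86. Ctsk, level in the authors' values, stood at -0.24 and -0.61. Csf1r turned to -0.087 and -0.46, and Tnfrsf11a to -0.062 with equal totals. Calls under these scalings were not tested. The median of the 10 genes was 0.16 with a pseudocount of 5 FPKM, 0.39 over genes with at least 1 FPKM, 0.039 with the median set to 0 and -0.33 with equal totals, so its sign has no fixed direction. Ranked only among rows with at least 0.1 FPKM, Tnfsf11 fell to percentile 8.67 and Tnfrsf11b to 15.1 in molar. In incisor Ocstamp then ranked at 10.9, Tnfsf11 at 22.6, Dcstamp at 27.7 and Tnfrsf11a at 38.8. The ratios of Tnfsf11 to Tnfrsf11b and of Csf1 to Csf1r moved by less than 1.5 times with a pseudocount of 0.1 FPKM. Divided by the summed macrophage markers in place of Csf1r, an alternative chosen after seeing the data, the molar to incisor ratio was 2.16 for Acp5, 14.5 for Ocstamp and 1.92 for Dcstamp. No paired analysis was possible because the table holds 1 value per tissue, and for the same reason no library could be left out.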

Other observations

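Some relatives of these cytokines, chosen after their values were seen, are given as values. Csf3, the granulocyte growth factor, stood at 25.8 FPKM in molar and 1.68 in incisor (q = 0.000664 in the authors' deposited table). Csf2 stood at 3.72 and 1.15 (q = 0.252), and its receptor subunits Csf2ra at 11.6 and 4.42 (q = 0.191) and Csf2rb at 7.01 and 7.25 (q = 0.898) in the authors' deposited table. Tnfsf10, the death ligand TRAIL that OPG also binds, stood at 0.900 in molar and 0.0459 in incisor (q = 0.0514), and its receptor gene Tnfrsf10b at 1.28 and 4.02 (q = 0.263) in the authors' deposited table.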
